A study of Mus musculus with 8 samples.

Results

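Fgf9, Tnfrsf12a, Phlda1, Palld and BC034090 were 5 genes with low transcript levels in brain tumours, of 22056 genes in the deposited matrices. They were picked by symbol because earlier results from the same libraries had placed them among the largest decreases of brain against both other sites. The brain differences are therefore given as a description, without a test. Levels were read in tumour cells, defined as cells in which transcripts of the eGFP reporter and of Mycl made up at least 0.2% of the unique molecular identifiers (UMIs). The libraries came from allografts of N2N1G, a small cell lung cancer line, harvested 3 weeks after transplantation. The 2 brain and 3 subcutaneous allografts were seeded by injection into the site itself and the 3 liver allografts through the tail vein, so route and site cannot be told apart for liver. All groups shared the one cell line, no genotype or drug differed between them, and mouse strain and age are not given in the labels. Viable cells were sorted, and their transcripts were read from the 3' end in droplets. Nothing in the labels says that replicates came from separate cultures or animals, so the p-values measure the spread between these libraries, which may in part be technical.

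The genes cover several steps of signalling from outside the cell to its skeleton. Fgf9 encodes a secreted fibroblast growth factor that acts through FGF receptors and the ERK kinase cascade. Tnfrsf12a encodes Fn14, the receptor of the cytokine TWEAK (Tnfsf12) in the TNF receptor superfamily, which feeds NF-kB signalling through TRAF adaptors and is itself induced by growth factors and injury. Phlda1 is a small pleckstrin-homology-like protein whose transcript rises in many cells after growth factor, ERK and stress signals. Palld encodes palladin, a scaffold of actin bundles and focal adhesions. BC034090 is a protein-coding gene of little known function.

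On GRCm38, Fgf9 lies on chromosome 14 (58070547 to 58112720, plus strand) and Tnfrsf12a on chromosome 17 (23675445 to 23677468, minus strand). Phlda1 lies on chromosome 10 (111506286 to 111508645, plus strand), Palld on chromosome 8 (61511433 to 61902690, minus strand) and BC034090 on chromosome 1 (155212471 to 155244444, minus strand). The genes thus sit on 5 chromosomes and share no locus. RefSeq promoter windows (GRCm38.p6) were found for 4 of the 5 genes; Phlda1 had none.

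The upstream 250 bases are shown so that the start sites of the 4 genes can be compared; that the genes were low together in brain follows from how they were chosen and is no ground for a shared feature. Capitals mark every match to a searched motif. The windows are chr14:58072436-58072685 for Fgf9, chr17:23677450-23677699 for Tnfrsf12a, chr8:61760090-61760339 and chr8:61591140-61591389 for listed starts 2 and 3 of Palld, and chr1:155244533-155244782 for BC034090.
Fgf9: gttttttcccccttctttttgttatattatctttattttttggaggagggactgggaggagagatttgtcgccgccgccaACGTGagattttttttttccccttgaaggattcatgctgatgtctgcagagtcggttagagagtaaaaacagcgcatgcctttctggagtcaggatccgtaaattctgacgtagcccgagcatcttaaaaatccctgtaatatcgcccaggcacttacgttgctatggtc
Tnfrsf12a: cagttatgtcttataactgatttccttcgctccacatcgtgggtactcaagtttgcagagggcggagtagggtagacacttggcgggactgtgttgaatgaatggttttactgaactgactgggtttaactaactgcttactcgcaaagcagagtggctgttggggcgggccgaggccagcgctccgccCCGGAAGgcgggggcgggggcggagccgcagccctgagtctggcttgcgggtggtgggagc
Palld, start 2: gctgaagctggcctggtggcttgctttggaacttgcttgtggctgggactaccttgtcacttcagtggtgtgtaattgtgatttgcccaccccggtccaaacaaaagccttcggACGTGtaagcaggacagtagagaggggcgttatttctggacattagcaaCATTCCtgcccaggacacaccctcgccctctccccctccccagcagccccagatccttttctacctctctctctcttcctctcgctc
Palld, start 3: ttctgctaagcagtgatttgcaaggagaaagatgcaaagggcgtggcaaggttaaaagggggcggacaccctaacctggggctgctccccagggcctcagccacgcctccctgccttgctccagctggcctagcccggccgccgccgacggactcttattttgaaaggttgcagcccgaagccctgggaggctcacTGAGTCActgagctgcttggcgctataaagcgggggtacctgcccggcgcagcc
BC034090: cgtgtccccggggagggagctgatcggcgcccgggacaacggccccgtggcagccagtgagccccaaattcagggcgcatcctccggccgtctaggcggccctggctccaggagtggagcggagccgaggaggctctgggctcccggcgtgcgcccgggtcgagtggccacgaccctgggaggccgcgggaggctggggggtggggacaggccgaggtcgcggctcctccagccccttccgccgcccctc

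The motifs, searched on both strands over 250 bases before to 50 after each start, were AP-1 (TGANTCA), CRE (TGACGTCA), TEAD (GGAATG), ETS (CCGGAAG), hypoxia response element core (ACGTG), E-box (CACGTG, which contains that core), SOX (ACAAAG) and CArG. The Tnfrsf12a window held 1 ETS match, first base at position -61 from the start, and 8.86% of all 32851 windows held one. The window of Palld start 3 held 1 AP-1 match at -54, present in 7.81% of windows. The window of Palld start 2 held a TEAD match at -87 (14.7% of windows) and a hypoxia element core at -136, and the Fgf9 window held that core at -170 (19.6% of windows). The BC034090 window held none of these letters and was 76% G and C, against a median of 52.7% over all windows. Palld start 1 also held no match, and no motif was common to all windows.

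The deposited matrices held 38460 cells, of which 36797 passed the filters and 34719 were tumour cells. Libraries held 2418 to 6276 tumour cells and 21689091 to 62047017 tumour-cell UMIs, with median depths of 7971.5 to 10542 UMIs per cell. An eGFP UMI was present in 99.4 to 99.8% of the tumour cells of a library. Pairs of libraries shared 20 to 56 cell barcodes. Brain tumour cells carried more macrophage-marker transcripts (12 markers, summed level 461 and 68.8 CPM, counts-per-million of the tumour-cell UMIs) than liver (5.74 to 14.4) or subcutaneous tumour cells (2.06 to 44.6), with none of the markers at 0 in brain. Of 14 marker lists of other cell types, 7 had both brain sums above all other libraries. Besides macrophages these were oligodendrocytes (251 and 186 CPM over 9 markers against 59.5 to 70.3 elsewhere), astrocytes (114 and 88.0 CPM over 9 markers against 27.1 to 56.2) and microglia (132 and 61.8 CPM over 8 markers against 24.4 to 42.3). The others were pericytes or smooth muscle (35.7 and 45.3 CPM over 9 markers against 4.08 to 18.2), B cells (37.3 and 22.8 CPM over 4 markers against 5.08 to 12.02) and T or NK cells, at 1.01 CPM or less in every library. Subcutaneous replicate 1 stood apart from the other subcutaneous libraries. It held 121 macrophage-marker cells against 1 and 2, and 9.37% of its tumour cells lay in clusters 8 and 9, the clusters with En1 among their 10 leading genes, against 0.621 and 0.668%. These clusters held 28.0 and 38.5% of the tumour cells of the brain libraries and at most 0.219% in liver. The part of these differences in the values below was not tested, except where a value without those cells is given.

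All 5 genes were lowest in both brain libraries. Both brain libraries lay below all 6 others for 5 of 5 genes, a pattern held by 11.0% of the 13931 genes tested; since the brain contrasts chose the genes, nothing is read from that count. All 5 passed the filter on low counts. In bulk sums of this kind, fewer cells with a transcript and fewer transcripts per cell cannot be told apart. The shares of cells given further on do not settle this.

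The ligand Fgf9 stood at 3.37 and 3.62 CPM in the brain libraries, at 11.7, 11.9 and 11.1 CPM in liver, and at 7.27, 15.2 and 15.8 CPM in subcutaneous replicates 1, 2 and 3. The liver libraries were nearly equal, while subcutaneous replicate 1 lay between brain and the rest. Against liver the log2 fold change of brain was -1.84 ± 0.31 (SE), and against subcutaneous it was -1.87 ± 0.31. The receptor gene Tnfrsf12a stood at 12.1 and 9.69 CPM in brain, 41.2, 49.1 and 50.4 CPM in liver, and 27.4, 61.5 and 65.5 CPM in subcutaneous tumours. Brain was again lowest and did not overlap the others, its log2 fold changes being -2.23 ± 0.35 (liver) and -2.25 ± 0.35 (subcutaneous).

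Phlda1, the ERK- and stress-responsive gene, was read at 3.87 and 2.71 CPM in brain, 10.2, 11.9 and 11.9 CPM in liver and 8.56, 19.0 and 23.1 CPM in subcutaneous tumours. For brain its log2 fold changes were -1.92 ± 0.39 against liver and -2.38 ± 0.39 against subcutaneous. The order of the sites was thus brain, liver, subcutaneous by means, but subcutaneous replicate 1 lay below every liver library. The palladin gene Palld stood at 1.98 and 2.79 CPM in brain, 15.2, 10.2 and 15.9 CPM in liver and 4.41, 14.2 and 15.1 CPM in subcutaneous tumours. Its gap was the narrowest in relative terms, the lowest other library being 1.58 times the highest brain library, and its log2 fold changes were -2.62 ± 0.54 and -2.22 ± 0.53. BC034090 had the widest gap, at 2.76 times. It stood at 3.55 and 4.75 CPM in brain, 38.4, 35.6 and 30.5 CPM in liver and 13.1, 24.9 and 28.2 CPM in subcutaneous tumours, the log2 fold changes being -3.17 ± 0.33 and -2.39 ± 0.33.

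Subcutaneous replicate 1 was the lowest library outside brain for all 5 genes, which the plot of levels by library shows.

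**Figure D1:**
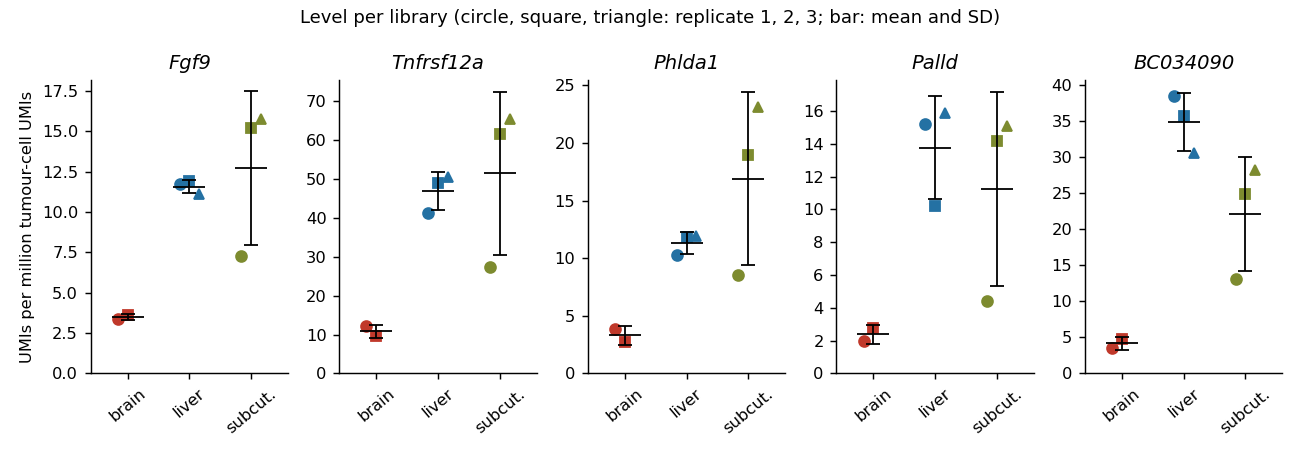
CPM over tumour-cell UMIs (vertical axes from 0) of each gene in each library, by site on the horizontal axis, with bars for mean and SD (n = 2 brain, 3 liver, 3 subcutaneous). Brain points lie below all others in each panel, and subcutaneous replicate 1 is the next lowest point.

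Without clusters 8 and 9, the brain levels were higher but stayed lowest. Fgf9 then stood at 4.60 and 5.19 CPM in brain against 7.74 to 15.9 CPM elsewhere, and its log2 fold changes shrank to -1.31 against liver and -1.38 against subcutaneous. BC034090 stood at 4.60 and 6.72 CPM in brain against 14.0 CPM or more elsewhere. With those cells left out, both brain libraries remained below all 6 others for 5 of 5 genes, and subcutaneous replicate 1 remained the next lowest. Tumour cells with 3 or more macrophage markers made up 18.8% of tumour cells in brain replicate 1 and at most 1.03% in any other library. Leaving out those tumour cells also left 5 of 5 genes lowest in brain. In each case the cells kept are parts of the libraries that chose the genes. The share of all genes with this pattern was not counted there, so nothing is read from these counts.

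Lower calls made up 8.56% of genes for brain against liver and 6.13% against subcutaneous. Among the 367 genes called lower in both, with both brain libraries below all 6 others and a mean of at least 10 CPM, ranked by the smaller of the 2 log2 decreases, BC034090 (-2.39), Tnfrsf12a (-2.23) and Phlda1 (-1.92) came first. The next genes were Sema3c, a secreted semaphorin, at -1.87 and Igfbp2, an insulin-like growth factor binding protein, at -1.80. Palld and Fgf9 had means of 9.97 and 9.99 CPM over the libraries and so fell just under that minimum here.

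The contrast of liver against subcutaneous had not chosen the genes, and it was tested with edgeR. None of the 5 genes passed an adjusted p of 0.05 (0 of 5, where 2.83% of 13931 genes did). At an unadjusted p under 0.05 there was 1, BC034090, and DESeq2 called 1, also BC034090. BC034090 was higher in liver in every library pair, by 0.77 ± 0.25 on the log2 scale, with an edgeR adjusted p of 0.145 and a DESeq2 adjusted p of 0.0401. Liver and subcutaneous libraries lay apart without overlap for 27.7% of all genes. Phlda1 was lower in liver by the estimate, -0.46 ± 0.30 (edgeR adjusted p = 0.471), and without subcutaneous replicate 1 the estimate was -0.78 with an adjusted p of 0.0146. For Palld the difference was 0.40 ± 0.41, for Tnfrsf12a -0.02 ± 0.28 and for Fgf9 -0.03 ± 0.25, with edgeR adjusted p of 0.675, 0.977 and 0.969.

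Shares of cells were compared after thinning every tumour cell to 3000 UMIs, with shallower cells (48 to 180 per library) left out. A Fgf9 UMI was seen in 0.66 and 0.77% of brain tumour cells, 3.06 to 3.51% of liver and 1.83 to 4.49% of subcutaneous tumour cells. For Tnfrsf12a the shares were 3.09 and 2.47% in brain, 11.0 to 11.7% in liver and 6.78 to 14.7% in subcutaneous tumours. Phlda1 was seen in 1.15 and 0.65% of brain, 2.71 to 3.24% of liver and 2.01 to 5.74% of subcutaneous tumour cells. Palld reached 0.49 and 0.70% in brain against 2.68 to 4.49% in liver and 1.13 to 4.01% in subcutaneous tumours, and BC034090 0.93 and 1.25% against 8.22 to 9.87% and 3.64 to 8.00%. Fewer brain tumour cells thus held a UMI of each gene, and both brain shares were below all others for each. At this depth a share mostly follows the mean level. BC034090 in liver replicate 1 had 9.87% against 10.2% from random counting at its mean, and Tnfrsf12a in subcutaneous replicate 3 had 14.7% against 19.1%. The shares therefore largely restate the levels that chose the genes, and cannot tell fewer expressing cells from fewer transcripts per cell. Without thinning the shares were 2.85 and 3.77% in brain and 10.3 to 31.2% elsewhere for BC034090, and 8.64 and 7.76% against 17.95 to 35.7% for Tnfrsf12a.

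Most cells with a UMI held 1. The variance over the mean of UMIs per thinned cell was 1.02 to 1.12 for Fgf9, 1.06 to 1.19 for BC034090 and 1.00 to 1.23 for Palld, near the value of 1 that random counting gives. Tnfrsf12a and Phlda1 were less even, with ratios of 1.08 to 1.94 and 0.99 to 2.04. The highest single thinned cell held 13 Tnfrsf12a UMIs, in liver replicate 2, and 9 Phlda1 UMIs, in subcutaneous replicate 1.

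Host cells in the same brain libraries gave a level for comparison. In thinned macrophage-marker cells, 0 of 565 in brain replicate 1 and 0 of 157 in brain replicate 2 held a Fgf9 or BC034090 UMI, which allows shares of up to 0.531% and 1.91%. The tumour-cell shares of brain replicate 1, 0.66% for Fgf9 and 0.93% for BC034090, were above its limit, while those of brain replicate 2, 0.77 and 1.25%, were under its limit. At full depth, Fgf9 had 0 UMIs in these host cells in both libraries and BC034090 had 1 and 0. The exact binomial 95% intervals ended at 0.879 and 3.37 CPM for Fgf9 and at 1.33 and 3.37 CPM for BC034090, below the tumour-cell level of the same library for both genes. Phlda1 was seen in 5.84 and 3.82% of these host cells, Tnfrsf12a in 7.43 and 4.46% and Palld in 2.30 and 0.64%. In brain replicate 1, all 3 shares exceeded those of the tumour cells beside them, both being thinned to 3000 UMIs (medians before thinning were 4231 and 7971.5). In summed CPM, Phlda1 stood at 33.4 and 16.4 in brain macrophage-marker cells, with exact binomial 95% intervals of 28.1 to 39.4 and 9.74 to 26.0, against 3.87 and 2.71 in tumour cells. Left without cells holding 3 macrophage markers, the brain tumour levels were 3.31 and 2.73 CPM for Phlda1 and 10.8 and 9.64 CPM for Tnfrsf12a.

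Tumour cells were then grouped into 19 clusters, without the 5 genes among the clustering genes, and 5 clusters held at least 30 cells in every library. These were cluster 3 (led by Pttg1 and Cenpa), cluster 4 (Prc1 and Plk1, mitotic genes), cluster 5 (Cldn7 and Ceacam10), cluster 6 (Tfap2a and Bcl11a) and cluster 16, which was shallow (median 4578 UMIs) and led by haemoglobin and liver plasma-protein transcripts. Tnfrsf12a and Phlda1 were lowest in both brain libraries in 5 of these 5 clusters. Fgf9 and BC034090 were so in 3 and Palld in 2. The margin was narrow for Phlda1 in cluster 16, with brain at 0 and 1.76 CPM against 1.91 CPM in the lowest other library. The share of all genes with this pattern in a cluster was not counted, so these counts are a description only. In cluster 6, Palld stood at 3.68 and 3.96 CPM in brain and at 3.30 to 5.04 CPM in the other libraries, and BC034090 at 4.60 and 7.35 CPM against 4.29 to 8.88. Neither gene was therefore low in brain within that cluster, and the values overlapped. In cluster 4, by contrast, Palld stood at 3.81 and 7.68 CPM in brain, 26.2 to 42.0 CPM in liver and 14.2 to 33.8 CPM in subcutaneous tumours, and BC034090 at 3.20 and 4.24 CPM against 11.99 to 34.8.

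**Figure D2:**
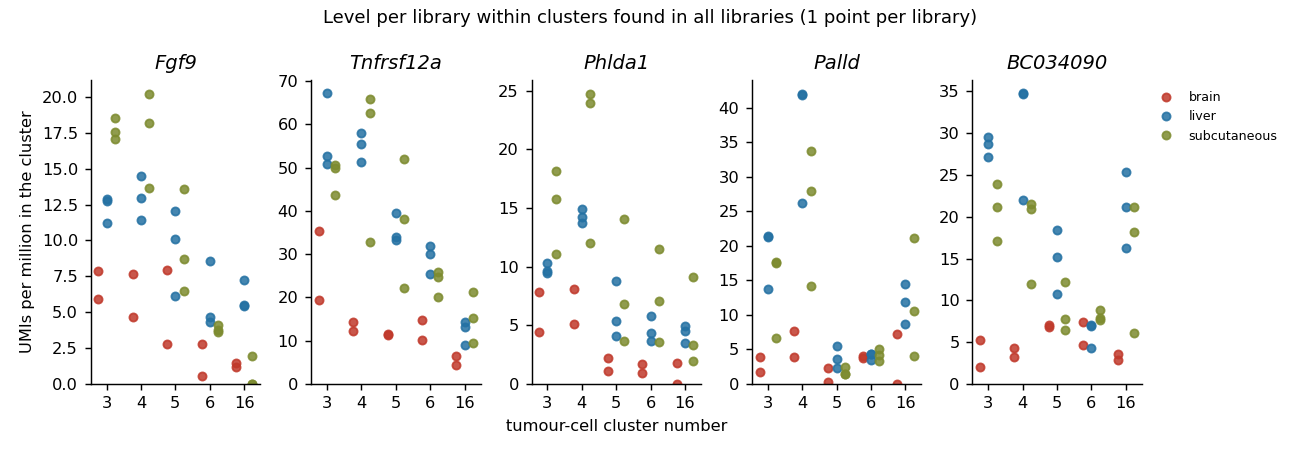
CPM within a cluster (vertical axes from 0) for each gene in the 5 tumour-cell clusters found in all libraries (horizontal axis, cluster number); each point is 1 library, coloured by site. Tnfrsf12a and Phlda1 are lowest in brain in every cluster, while in cluster 6 the Palld and BC034090 points of the 3 sites overlap.

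Levels also differed between clusters that were unevenly spread over the sites, and these are given as a description of the cells clustered. Cluster 8 (led by Bst2, Ttr and Clca3b, with En1 among its leading genes) held 507 and 1149 cells of the brain libraries and 289 of subcutaneous replicate 1. There Fgf9 stood at 0.253 and 0.778 CPM in brain and 2.66 CPM in subcutaneous replicate 1, and BC034090 at 0.759, 1.56 and 5.77 CPM. Both genes were thus lower there than in those libraries as a whole. Cluster 1, led by Sfrp5 and Kcnh3 and made up mainly of liver cells, had BC034090 at 45.6 to 54.6 CPM in liver, 35.8 to 50.1 CPM in subcutaneous tumours and 18.6 CPM in the 71 cells of brain replicate 2. Cluster 10, led by the heat shock gene Hspa1a with Ddit4, Adm and Bhlhe40, was highest for Phlda1 and Tnfrsf12a. Its Tnfrsf12a level was 25.4 and 23.6 CPM in brain (42 and 25 cells), 64.7 to 155 CPM in liver and 126 to 314 CPM in subcutaneous tumours. Palld was highest in the mitotic cluster 4.

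Which states of the cell cycle and of stress the genes followed was asked inside each library, by comparing tumour cells rich in a list of state genes with the other tumour cells of that library. Cells were thinned to 3000 UMIs, the gate was at least 4 UMIs over 20 G2/M genes, or a cut reached by at most 25% of a library's tumour cells for the other states, and the library was the pair in the edgeR fit. The cuts thus differed between libraries, at 9 to 14 UMIs for S phase, 2 to 6 for hypoxia, 8 to 16 for immediate early and 1 or 2 for ERK target genes. They also followed site. The hypoxia cut was 2 UMIs in brain, 3 in liver and 5 or 6 in subcutaneous libraries. The immediate early cut was 16 and 11 in brain, 8 in liver and 9 to 11 in subcutaneous libraries. Gated cells of different sites were therefore not alike in these transcripts, which enters the comparisons of states between sites. None of the 5 genes was in a gate list. Both brain libraries lay below all 6 others for 5 of 5 genes in the gated and in the other cells of every state. These cells are parts of the libraries that chose the genes, and the share over all genes was not counted, so nothing is read from that count. Some gated brain sums rested on few UMIs, such as 1 for BC034090 in immediate early cells of brain replicate 1.

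In G2/M, 4 of 5 genes passed the threshold, where 47.7% of 10883 genes did. Palld rose most, from 1.11 and 1.63 CPM outside the gate to 2.65 and 3.95 CPM inside in brain, from 6.08 to 11.8 CPM up to 15.1 to 23.7 CPM in liver, and from 3.32 to 11.1 CPM up to 5.83 to 22.8 CPM in subcutaneous tumours. It was higher in gated cells in 8 of 8 libraries, by 1.11 ± 0.096 on the log2 scale (edgeR adjusted p = 3.31e-14). BC034090 fell in G2/M cells in 8 of 8 libraries, by 0.72 on the log2 scale (SE 0.073, edgeR adjusted p = 3.89e-12), and also fell in S phase cells, by 0.37 (SE 0.084, edgeR adjusted p = 0.000571). It was the 1 gene of 5 past the threshold in S phase, where 37.4% of genes were. Tnfrsf12a fell in G2/M by 0.43 (SE 0.061, edgeR adjusted p = 1.1e-07), and was higher inside the gate in 1 of 8 libraries. The Phlda1 difference of 0.26 ± 0.11 (edgeR adjusted p = 0.0444) rested on the settings: DESeq2 gave an adjusted p of 0.235, a gate of at least 8 UMIs gave -0.016, and the call was lost without brain replicate 1, subcutaneous replicate 1 or 3, or any liver library (adjusted p of 0.0519 to 0.256). Fgf9 differed by -0.10 ± 0.10 (edgeR adjusted p = 0.484).

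In cells rich in 15 hypoxia genes, 3 of 5 genes passed, against 28.1% of genes. Tnfrsf12a was higher in 8 of 8 libraries, by 0.75 ± 0.093 (edgeR adjusted p = 4.83e-05), and Phlda1 in 7 of 8, by 0.74 ± 0.14 (edgeR adjusted p = 0.00121). Phlda1 stood at 11.98 to 16.8 CPM inside and 9.38 to 12.1 CPM outside the gate in liver, and at 10.9 to 35.8 CPM against 8.02 to 17.98 CPM in subcutaneous tumours. In brain its levels were 3.65 and 5.93 CPM inside and 3.89 and 1.20 CPM outside, so the 2 brain libraries went opposite ways. Palld was higher by 0.49 ± 0.12 (edgeR adjusted p = 0.00628), in 6 of 8 libraries and in neither brain library; DESeq2 gave an adjusted p of 0.092. Fgf9 (0.33 ± 0.13) and BC034090 (-0.23 ± 0.10) had edgeR adjusted p of 0.0646 and 0.112.

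In cells rich in 15 immediate early genes such as Fos and Egr1 4 of 5 genes passed, against 25.6% of genes. Phlda1 was higher in 7 of 8 libraries, by 0.89 ± 0.15 (edgeR adjusted p = 0.000436), and Tnfrsf12a in 6 of 8, by 0.83 ± 0.18 (edgeR adjusted p = 0.0107). Fgf9 was higher by 0.47 ± 0.14 (edgeR adjusted p = 0.024) and Palld by 0.37 ± 0.12 (edgeR adjusted p = 0.0283). With DESeq2, Phlda1 alone remained past the threshold, at adjusted p of 0.099 for Tnfrsf12a, 0.231 for Fgf9 and 0.20 for Palld. Without subcutaneous replicate 2 or 3, Fgf9 and Palld each missed the threshold. Palld also missed it without liver replicate 3 or subcutaneous replicate 1 (adjusted p of 0.0505 to 0.153 over these 4), and Fgf9 without liver replicate 1 or 2 (0.0576 to 0.131) and with cells thinned to 5000 UMIs (edgeR adjusted p = 0.443). In cells gated on 15 ERK target and feedback genes, 2 of 5 passed, against 13.1% of genes. The cut was 1 UMI in brain replicate 2 and liver, which gated 19.8 to 23.7% of cells. It was 2 UMIs in brain replicate 1 and subcutaneous libraries, which gated 7.98 to 9.90%. In brain replicate 2, 791 of the 951 gated cells held a single such UMI, so gated cells there were not rich in these transcripts. Phlda1 was higher by 0.76 ± 0.12 (edgeR adjusted p = 2.89e-06; 7 of 8 libraries) and Tnfrsf12a by 0.44 ± 0.067 (edgeR adjusted p = 4.4e-07; 6 of 8 libraries). Fgf9, a ligand upstream of that cascade, differed by 0.12 ± 0.13.

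**Figure D3:**
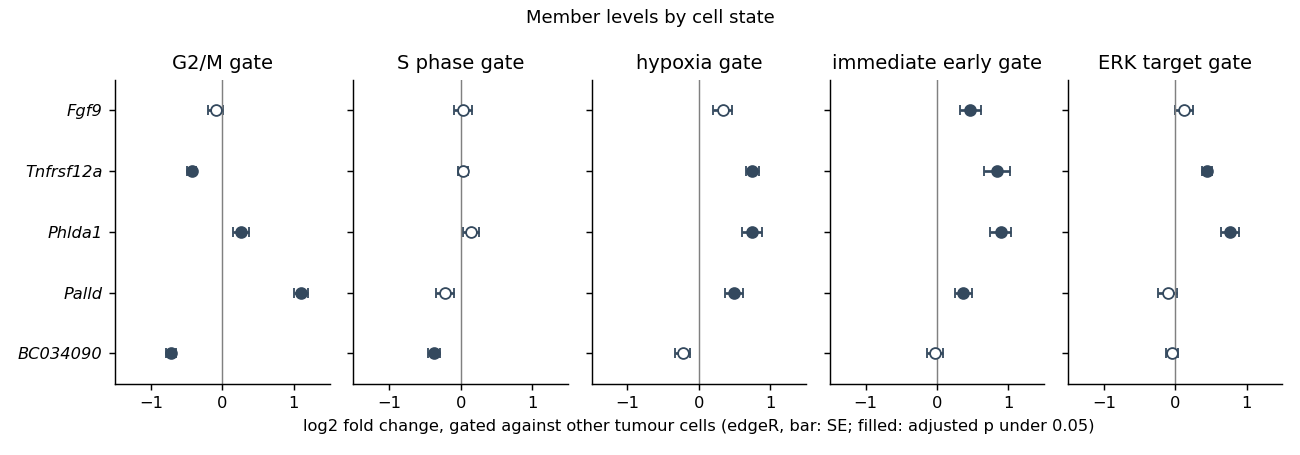
Log2 fold change with SE of each gene (vertical axis) in gated against other tumour cells, from edgeR over 8 libraries, for 5 gates; filled points have an adjusted p under 0.05. Palld is highest in G2/M, BC034090 falls in G2/M and S phase, and Tnfrsf12a and Phlda1 rise in the hypoxia, immediate early and ERK target gates.

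Whether these differences themselves differed between sites was tested by the state by site interaction, which 1 gene passed in 2 gates. In the immediate early gate, Tnfrsf12a stood at 10.5 and 3.88 CPM inside and 11.0 and 10.6 CPM outside in brain, resting on 17 and 10 gated UMIs. In liver it stood at 69.6, 71.5 and 85.2 CPM inside and 38.4, 37.2 and 37.5 CPM outside, and in subcutaneous tumours at 50.6, 105 and 132 CPM inside and 20.02, 51.3 and 54.5 CPM outside. Tnfrsf12a was thus higher in immediate early cells in all 6 libraries outside brain and in neither brain library. The log2 difference was -0.78 ± 0.29 in brain, while in liver it was 0.86 ± 0.09 and subcutaneously 1.08 ± 0.08 (interaction, edgeR adjusted p = 4.75e-06, where 18.1% of genes passed). Between liver and subcutaneous tumours alone the interaction had an adjusted p of 0.404, and without brain replicate 2 it had 0.0375.

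In the hypoxia gate, the Tnfrsf12a difference was 0.43 ± 0.24 in brain, while in liver it was 0.51 ± 0.10 and subcutaneously 0.97 ± 0.08 (interaction, edgeR adjusted p = 0.00616, where 15.6% of genes passed). The difference was larger in the subcutaneous tumours, with 49.8, 105 and 102 CPM inside against 20.4, 50.9 and 61.5 CPM outside. Their gate cut was also higher, at 5 or 6 UMIs against 3 in liver and 2 in brain, and its part was not tested. The interaction call was lost with DESeq2 (adjusted p = 0.212), without liver replicate 3 (0.0652) and without subcutaneous replicate 2 (0.0625). The other 4 genes passed in neither of these gates, and 0 of 5 genes passed the interaction for G2/M, S phase and ERK target cells, where 3.08, 3.98 and 0.0557% of genes did. At an unadjusted p under 0.05 these had 2, 3 and 1 genes with edgeR, and DESeq2 called 0 in each.

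**Figure D4:**
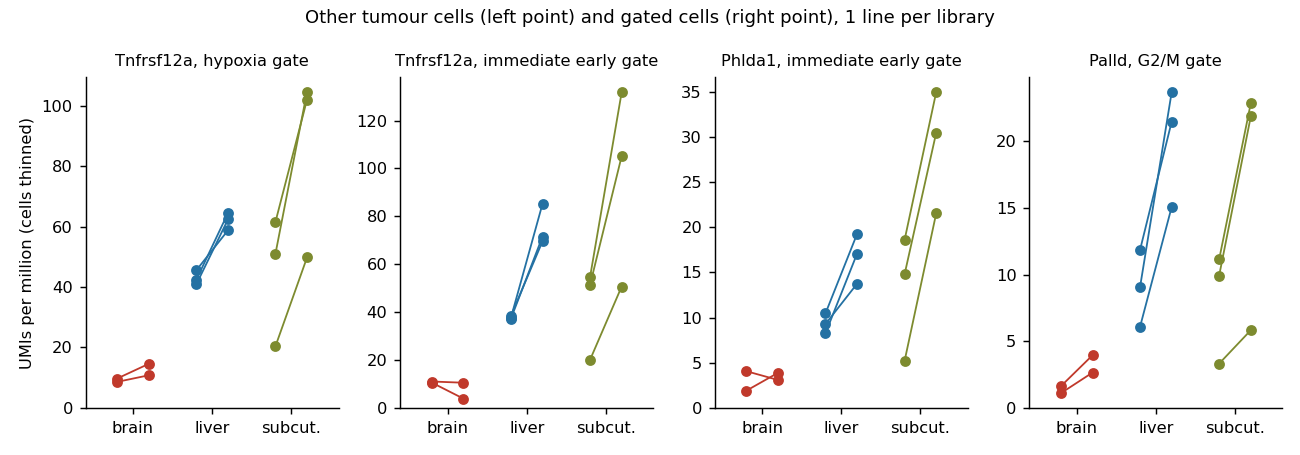
CPM in thinned tumour cells outside (left point) and inside (right point) a gate, 1 line per library, by site on the horizontal axis; vertical axes start at 0. The Tnfrsf12a lines rise in liver and subcutaneous tumours in both panels, and with immediate early genes neither brain line rises.

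Pairs of the genes were also counted in the same thinned cells, as a description that depth and state both enter. Tnfrsf12a and Phlda1 were seen together in 193 cells against 131 expected from their shares in each library, above expectation in 8 of 8 libraries. Tnfrsf12a and Fgf9 shared 175 cells against 122 (8 of 8 libraries), and Palld and Phlda1 63 against 37.5 (7 of 8). Tnfrsf12a and BC034090 were seen together less often than their shares give, in 217 cells against 255, and above expectation in 1 of 8 libraries.

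Over the 8 libraries, the genes most like each one in log2(CPM + 1) were found among 7942 genes with a mean of at least 10 CPM; all these correlations share the brain libraries, which were low for every member. Pearson's r over these libraries reached 0.996 for Fgf9 with Kif21a, followed by Snx5 and Mrpl20. For Tnfrsf12a it was 0.992 with Sdf4, then Bmp7 and Tes. Phlda1 was most like Lrrc59 (0.995), Ppp2r5d and Surf2, Palld like Hspb8 (0.994), Cs and Gdpd5, and BC034090 like the imprinted gene Mest (0.997), Bcam and Nap1l1. Over the 19 tumour clusters the leading genes were others: Atad3a (0.964), Cptp and Tmem47 for Fgf9, and Stbd1 (0.933), Ripk4 and Reep6 for Tnfrsf12a. For Phlda1 they were Tbc1d4 (0.899), Eps15 and Tnfrsf12a (0.822), for Palld Cmtm8 (0.825), Phlda1 and Tst, and for BC034090 Plpp2 (0.906), Trp53inp2 and Sema3c. No gene appeared in both lists of the same member.

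The other genes of the pathways were taken from lists by function, and their brain levels were tested with edgeR against the mean of both other sites, where 22.7% of 13931 genes passed (13.9% higher, 8.74% lower). Of 20 tested FGF ligands, receptors and adaptors, 2 rose and 3 fell, with a median log2 fold change of -0.15 against -0.0052 over all genes. The receptor Fgfr1 stood at 10.9 and 10.2 CPM in brain, 11.5 to 16.4 CPM in liver and 16.8 to 20.6 CPM in subcutaneous tumours, and fell by 0.73 (SE 0.17, edgeR adjusted p = 0.0162). The decoy-like receptor Fgfrl1 fell by 1.58 (edgeR adjusted p = 0.0051) and the hormone-like ligand Fgf21 by 1.22. Fgfr3, at 0.69 and 1.16 CPM in brain and at most 0.48 CPM elsewhere, rose by 2.13, and Fgfr4 by 1.32, both at low levels. Fgfr2 (-0.18, edgeR adjusted p = 0.73) and the Fgf9-related ligand Fgf20 (-1.58, edgeR adjusted p = 0.25) did not pass, and Fgf16, at most 0.064 CPM in any library, was not tested.

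Of 24 ERK target and feedback genes, 5 rose and 3 fell, with a median of -0.12. The feedback inhibitor Spry1 fell by 1.14 (SE 0.26, edgeR adjusted p = 0.0139), the transcription factor Myc by 0.95 and the feedback inhibitor Il17rd by 0.65. The ETS factor Elk3, at 8.67 and 7.26 CPM in brain and 1.21 to 3.84 CPM elsewhere, rose by 2.02 (SE 0.24, edgeR adjusted p = 0.000961), Plaur, the urokinase receptor, by 2.37, and Emp1 by 1.85. The Plaur call was lost without tumour cells holding 3 or more macrophage markers (edgeR adjusted p = 0.0771). Outside clusters 8 and 9, Emp1 differed by 0.40 (edgeR adjusted p = 0.46). Dusp6, an ERK phosphatase, differed by 0.22 (edgeR adjusted p = 0.56), Etv4 by 0.56 (0.44) and Etv5 by -0.41 (0.26), and Spry4 was too low to test. ERK targets thus went both ways. Phlda1 had been chosen as low in brain, and a part of ERK signalling in its level was not tested.

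Of 31 genes of the TNF receptor superfamily with TWEAK and TRAFs, 6 rose and 3 fell, with a median of 0.14. The ligand of Fn14, Tnfsf12, stood at 8.76 and 7.91 CPM in brain and 5.40 to 6.68 CPM elsewhere, and rose by 0.45 (SE 0.13, edgeR adjusted p = 0.0355). Receptor and ligand transcripts thus differed in opposite directions in brain tumour cells, the receptor having been chosen as low. The Tnfsf12 call did not hold in all settings. It was lost without tumour cells holding 3 or more macrophage markers (edgeR adjusted p = 0.0577) and outside clusters 8 and 9 (0.0639). The call was also lost with the replicate number as a block (0.085), and without liver replicate 2 or 3 or subcutaneous replicate 3. Tnfrsf1a, a TNF receptor, rose by 0.97 (edgeR adjusted p = 0.000995), the inhibitor of apoptosis Birc3 by 2.87 and the adaptor Traf5 by 1.92. The death receptor gene Tnfrsf25 fell by 1.88, Tnfrsf19 by 1.74 and the NF-kB inhibitor Nfkbie by 0.77.

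Of 48 genes of actin bundles, focal adhesions and SRF, the group of palladin, 4 rose and 6 fell, with a median of -0.14. The focal adhesion gene Vcl, encoding vinculin, fell by 0.95, the actin regulator Vasp by 0.66 (edgeR adjusted p = 0.00571) and the SRF coactivator Mkl1 by 0.53. Pdlim1, a protein of actin fibres, stood at 7.33 and 10.9 CPM in brain, 0.32 to 0.52 CPM in liver and 3.02, 0.45 and 0.56 CPM in subcutaneous tumours, and rose by 3.57 (SE 0.59, edgeR adjusted p = 0.00475). Cnn2 rose by 1.96 and Fhl3 by 1.67, and the relatives of palladin, Mypn and Myot, had no UMI in either brain library and were not tested. Of 21 YAP and TEAD genes, 5 rose and 4 fell, with a median of -0.097. The factors Tead3 and Tead4 fell by 1.71 and 1.59 (edgeR adjusted p = 0.0102 and 0.00405), and Fjx1 by 0.59. Wtip rose by 2.63, Tgfb2 by 2.00 and Gadd45a by 1.30. Phlda3, the p53-induced relative of Phlda1, stood at 12.7 and 18.6 CPM in brain and 9.09 to 15.9 CPM elsewhere (0.39, edgeR adjusted p = 0.15), and Phlda2 was too low to test.

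Of the 41 list genes called, 7 (Elk3, Tnfrsf1a, Birc3, Tpm4, Pdlim1, Tead4 and Gadd45a) were called in each of the 8 fits that left out 1 library. Leaving out brain replicate 1 or 2, which left 1 brain library, kept 14 and 10 of the 41. Outside clusters 8 and 9, 14 of the 41 were called. Wtip was then too low to test, and Gadd45a, Tnfrsf1a and Emp1 were not called, at log2 fold changes of 0.54, 0.25 and 0.40. Without tumour cells holding 3 or more macrophage markers, 37 of the 41 were called. Those not called were Plaur, Cnn2, Il17rd and Tnfsf12 (edgeR adjusted p of 0.0771, 0.0952, 0.0514 and 0.0577).

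**Figure D5:**
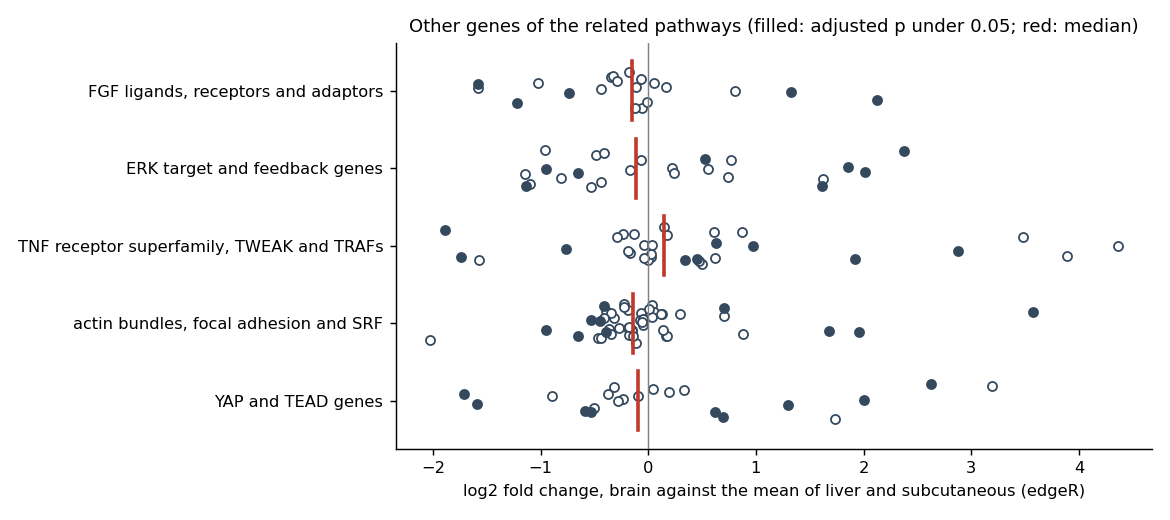
Log2 fold change of brain against the mean of liver and subcutaneous (horizontal axis, edgeR) for each tested gene of 5 function lists (vertical axis, points spread for legibility); filled points have an adjusted p under 0.05 and red bars are list medians. Each list holds genes that rose and genes that fell, and every median is within 0.15 of 0.

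The chromosomal neighbours of the 5 genes, 5 tested genes on each side, were read in the same contrast. Of the 50 neighbours, 10 fell and 7 rose, where 8.74 and 13.9% of all genes did, with a median log2 fold change of 0.013. Distances were taken between the lower coordinates of the genes, so they include gene length. Beside Tnfrsf12a, the claudin gene Cldn9, at 7.14 kb, fell by 2.68 (SE 0.60, edgeR adjusted p = 0.013) from a mean of 2.15 CPM. Hcfc1r1, at 1.85 kb on the other side, fell by 0.65. Of the 10 neighbours of Fgf9, 4 rose.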

How the data were processed

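UMI counts per gene and cell came as 1 deposited matrix for each library, in the Cell Ranger format per the file headers, with Cell Ranger, STAR and build mm10 named in the submitters' processing notes; how counting treated strand or multi-mapped reads is not given in the sources used here. The members and gene lists were chosen with earlier results of these data known.

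A cell was used if it had 500 or more genes and no more than 10% of its UMIs from mitochondrial genes, and doublets were not removed. Tumour-cell counts were summed per library and fitted in R 4.3.3 with edgeR 4.0.16 (TMM factors, filterByExpr, robust quasi-likelihood F tests, Benjamini-Hochberg over all genes, threshold 0.05), with 1 mean per site over 8 libraries and 5 residual degrees of freedom. State sums came from cells thinned to 3000 UMIs, with the library as a block. Each SE was taken from the log2 fold change and its F statistic. Macrophage-marker cells held at least 3 of 12 markers and were no tumour cells. Clusters came from scanpy 1.11.5 (Leiden resolution 1, igraph 0.11.9, no batch correction). Sums at 1 CPM in the shallowest library rest on few UMIs, and intervals cover counting error only. The tests were checked on simulated counts.

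The named genes were the 5 members, per list and direction the 3 largest called changes in brain, fixed partners (such as Tnfsf12, Fgfr1 and Dusp6) whatever they did, the 3 genes most like each member, and the next genes in the ranking; genes named for stability (Tpm4), neighbours and leading genes of clusters fell outside that rule and were picked after their values were seen.

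Alternatives were DESeq2 1.42.0, other scalings, filters, gates and depths, the replicate number as a block, and each library left out. No library looked like a second deposit of another. Another 2 alternatives, without clusters 8 and 9 (those with En1 among their leading genes) and on macrophage markers, were chosen after seeing the data.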

Additional observations from a re-analysis of the deposited data

Results flagged for a closer look

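Within libraries, the difference of Tnfrsf12a between immediate early gated and other tumour cells was not the same at the 3 sites (edgeR interaction, adjusted p = 4.75e-06): it was below 0 in both brain libraries and above 0 in the 6 others. Its difference in hypoxia gated cells also differed between sites (edgeR interaction, adjusted p = 0.00616), with the subcutaneous tumours above the rest. The gate cuts of both states differed by site, and their part in these interactions was not tested.

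Of 25 sets of 8 library differences checked for a library far from the others (log2 ratios with 1 CPM added), 2 had one, and chance alone would give about 1 in 20 sets. The Tnfrsf12a difference in S phase cells was -0.98 in brain replicate 2, resting on 13 gated UMIs, against -0.13 to 0.37 in the other libraries. For BC034090 in immediate early cells the difference was -1.70 in brain replicate 1, resting on 1 gated UMI, against -0.46 to 0.38 elsewhere.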

How the results depend on the processing

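With 2 brain libraries, 3 of each other site and brain levels that rest on 43 to 375 UMIs per gene and library, small differences were not detectable. The brain decreases of the 5 genes kept their sign in 210 of 210 alternative values. The genes were chosen for large decreases in these same libraries, so the sign was nearly fixed beforehand and that count is no support. Of these values, 6 moved by more than the spread between replicates, all for Fgf9 or BC034090 with cells thinned to 3000 UMIs or outside clusters 8 and 9. The fit on only the sites compared gave no value for brain against the mean of both others, and leaving out a brain library left 1 brain sample, assumed to vary like the others. The cause of the changes below was not tested.

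Between liver and subcutaneous, 1 member was called with DESeq2 and 0 to 1 with a library left out. Over all genes this contrast had 394 calls, 1051 with DESeq2, 713 with no scaling, and 33 (without liver replicate 2) to 1024 (without subcutaneous replicate 1) with a library left out. Brain against the mean of both others had 3159 calls, 1242 outside clusters 8 and 9, and 1081 (without brain replicate 1) to 5212 (without subcutaneous replicate 1). Outside clusters 8 and 9 the FGF, ERK, TNF, actin and YAP lists had 2, 3, 2, 6 and 3 calls. With a library left out they had 0 to 8, 3 to 15, 2 to 13, 2 to 19 and 4 to 12, the lowest without a brain library and the highest without subcutaneous replicate 1. The TNF list had 4 calls outside the G2/M gate and the YAP list 5 with thinned cells.

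Same-numbered samples correlated over 0.1 in 4 of 7 pairs (-0.11 to 0.34), and differently numbered ones in 2 of 14 (-0.39 to 0.38). A shared effect of the replicate number was not tested. The labels do not say that the numbers pair samples, so the main fits left them unpaired and the block is given as an alternative. With the replicate block the ERK list had 5 calls, the TNF list 4 and liver against subcutaneous 229, while 0 members were called there, as without it. The block turned the near-zero liver against subcutaneous estimates of Tnfrsf12a to 0.038 and of Fgf9 to 0.032.

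Members called by state were, for S phase, 2 with no scaling, 3 with the stricter gate and 1 to 2 with a library left out; for hypoxia, 5 without brain libraries; for immediate early, 1 with DESeq2 and 2 to 4 with a library left out; for ERK target, 1 with DESeq2, which gave Phlda1 no adjusted p. Interactions called were, for S phase, 1 with 5000 UMIs and 1 with the stricter gate. For hypoxia they were 0 with DESeq2, 2 with 5000 UMIs, 2 with the stricter gate and 0 to 2 with a library left out. For immediate early they were 3 with 5000 UMIs and 0 without brain, and for ERK target 1 with 5000 UMIs.

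Of 647 alternative values of single genes, 28 changed sign, all from estimates that had not passed except that of Phlda1 in G2/M, which went to -0.016 with the stricter gate. Between liver and subcutaneous, Fgf9 went to 0.022 with thinned cells, 0.024 outside the G2/M gate and -0.30 to 0.14 with a library left out, and Tnfrsf12a to -0.32 to 0.17. In S phase, Tnfrsf12a went to -0.0097 (DESeq2), -0.039 (5000 UMIs) and -0.023 to 0.072 (a library left out), and Fgf9 to -0.011, -0.14 and -0.038 to 0.15. Fgf9 in G2/M went to 0.066 with 5000 UMIs. BC034090 went to 0.085 with no scaling, 0.022 without brain and -0.10 to 0.0044 with a library left out in immediate early cells, and to 0.032 with no scaling in ERK target cells. Palld in ERK target cells went to 0.18 (5000 UMIs), 0.16 (stricter gate) and -0.23 to 0.027 (a library left out).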
